A study of Mus musculus with 16 samples.

Results

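The 10 genes described here, Egln3, Egln1, Hk2, Pfkfb3, Slc2a1, Ldha, Pdk1, Bnip3, Vegfa and Ero1l, are targets of the hypoxia response and steps of glucose use, and they were 10 of the 22552 genes in the expression table. They were chosen by name, starting from a measured difference: Egln3 was lower in AI F lines than in AI P lines, and the question was whether the other hypoxia targets followed it. All 10 were in the table and above the minimum mean level of 0.5 FPKM (fragments mapped to a transcript, scaled to its length and to the size of the library) that 13185 genes passed. The libraries were RNA-seq of 16 mouse pluripotent stem cell lines, 1 library a line, made from adipocyte progenitor cells (APCs) of the 129-M2rtTA strain, which carries a doxycycline-dependent transactivator. AN lines (9) were nuclear transfer embryonic stem cells, grown from blastocysts cloned with an APC nucleus and sequenced at passages 5 to 7, and AI lines (7) were induced pluripotent stem cells, made from APCs by adding doxycycline. All came from donor cells of mice that had themselves been grown from an induced line, so the compared lines share that history and the transgenes.

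The study classed each line by tetraploid complementation, the assay in which injected cells must form the whole fetus, as F (fully pluripotent) or P (partially reprogrammed). The AN F lines were AN1, AN9, AN15 and AN20, the AN P lines were AN2, AN3, AN5, AN6 and AN7, the AI F lines were AI3, AI7, AI10 and GS32, and the AI P lines were AI9, GS4 and GS9. The sample labels name the line and whether it is AN or AI, and the split into F and P follows the line list of the study. For GS9 and GS32 the title and the source label disagree, as the source label names GS4. All lines were assigned by title. GS4, GS9 and GS32 had been derived earlier, and were at passages 17, 6 and 13, against passage 7 for the other AI lines. A line is 1 clone, so each p-value below measures the spread between single cultures of different clones.

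Cells sense oxygen through prolyl hydroxylases of the Egln family, which mark the alpha subunits of the hypoxia-inducible factors (HIF) so that the Vhl ubiquitin ligase removes them. When oxygen or hydroxylase activity is low, HIF stays in place, binds a short core sequence in its target genes and raises them. The targets take up glucose (Slc2a1), trap and drive it through glycolysis (Hk2, Pfkfb3), reduce pyruvate to lactate (Ldha), hold pyruvate away from mitochondria (Pdk1), remove mitochondria (Bnip3), call blood vessels (Vegfa) and support protein folding (Ero1l), and they include Egln3 and Egln1 themselves, which closes a feedback loop. Pluripotent stem cells are known for strong glycolysis even in ample oxygen.

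The sequences just before the starts of 4 of the genes are printed because these genes were the ones the results turn on: Egln3, Bnip3 and Ero1l moved together from line to line, and Ldha, whose window holds the most matches to ACGTG, is shown for comparison, with a slope on Egln3 near 0. Each run is the 250 bases before a transcript start of RefSeq, build GRCm38.p6, read along the strand of the gene. Capitals mark the HIF core, ACGTG, and its variant GCGTG, on either strand, so that the other strand shows as CACGT or CACGC. The palindrome CACGTG counts as a match on both strands.
Egln3 (chr12:54203875-54204124, minus strand): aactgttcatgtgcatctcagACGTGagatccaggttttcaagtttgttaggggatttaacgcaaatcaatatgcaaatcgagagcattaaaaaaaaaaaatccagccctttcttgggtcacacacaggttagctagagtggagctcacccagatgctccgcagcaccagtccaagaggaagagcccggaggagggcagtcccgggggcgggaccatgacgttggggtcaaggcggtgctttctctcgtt
Bnip3 (chr7:138909507-138909756, minus strand): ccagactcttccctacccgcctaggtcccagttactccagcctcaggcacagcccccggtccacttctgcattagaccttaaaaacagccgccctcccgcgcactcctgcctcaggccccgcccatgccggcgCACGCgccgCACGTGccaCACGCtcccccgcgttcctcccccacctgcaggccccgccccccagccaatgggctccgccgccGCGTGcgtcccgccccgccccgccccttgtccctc
Ero1l, Ero1a in RefSeq (chr14:45318573-45318822, minus strand): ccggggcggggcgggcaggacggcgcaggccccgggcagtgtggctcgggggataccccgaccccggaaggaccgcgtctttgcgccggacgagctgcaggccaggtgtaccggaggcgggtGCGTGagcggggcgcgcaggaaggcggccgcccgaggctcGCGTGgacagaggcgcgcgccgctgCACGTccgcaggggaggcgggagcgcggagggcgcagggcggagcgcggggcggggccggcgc
Ldha, first of its entries (chr7:46845554-46845803, plus strand): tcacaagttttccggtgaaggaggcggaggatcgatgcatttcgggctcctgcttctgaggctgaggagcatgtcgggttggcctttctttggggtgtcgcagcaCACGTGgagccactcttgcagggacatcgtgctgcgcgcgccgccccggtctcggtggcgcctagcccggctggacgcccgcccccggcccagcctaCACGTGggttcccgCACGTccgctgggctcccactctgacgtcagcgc

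All 10 genes matched RefSeq promoter entries, 14 in all. Of these 14 windows 10 held ACGTG and 12 held either sequence, which covers 9 and 10 of the 10 genes. Over all 32851 RefSeq mouse windows of the same length, 16.6% held ACGTG, 28.2% held GCGTG and 38.6% held either. In Egln3 the match lay 229 bases before the start. In Bnip3 a palindrome lay about 108 bases before the start, with GCGTG on either side of it, and in Ero1l the matches lay 63, 88 and 128 bases before the start. Slc2a1 had ACGTG 36 bases before its start, and Pdk1 had only GCGTG, 78 bases before its start. These are matches of letters and not measured binding sites. In build mm9, to which the reads were mapped, Egln3 spans 55279968 to 55304847 of chromosome 12, Bnip3 spans 146082519 to 146101202 of chromosome 7 and Ero1l spans 45902879 to 45938237 of chromosome 14, each a protein-coding gene on the minus strand with no other annotated gene over it. Hk2 and Slc2a1 have overlapping non-coding or small RNA genes in that annotation, and whether reads were counted by strand is not given in the sources used here.

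The FPKM values are scaled to each library. The step between low values put the depths at 0.961 to 1.26 times that of AN1. Only depths near that of AN1 were searched, so a larger difference in depth could not have been found. The FPKM values of all genes summed to 661973 to 776426 in 12 libraries and to more in AN20 (789900), GS4 (815102), AN9 (850666) and GS9 (963434), which are also the 4 lines highest in Egln3, Bnip3 and Ero1l. Under median-ratio scaling, which sets such totals aside, the AI F minus AI P difference was -1.13 for Bnip3 and -0.58 for Ero1l, against -1.17 and -0.62 as deposited. Markers of pluripotency (Pou5f1, Nanog, Sox2 and 6 others found, of a list of 10) summed to between 1732 and 2405 FPKM in 14 lines, and to 3276 in GS9 and 3325 in GS4. Markers of fibroblasts, the type of cell used as feeder layer, were found in all lines: the 12 genes summed to 512 FPKM in GS4, 622 in GS9, 884 in AN9 and 885 in AN20, and to between 1096 and 2183 FPKM in the other 12 lines. No marker of either list was at 0 in any line. In such bulk libraries, fewer cells of a type and less RNA per cell cannot be told apart.

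Egln3, a hydroxylase that HIF itself induces, was highest in AI P and lowest in AI F. In AI P it stood at 10.2 FPKM in AI9, 18.01 in GS9 and 18.3 in GS4. In AI F it stood at 4.50 FPKM in GS32, 5.41 in AI3, 5.79 in AI10 and 7.46 in AI7. These AI groups did not overlap, and AI9 lay closer to the highest AI F line than to GS9 and GS4. In AN F it stood at 5.38 FPKM in AN1, 7.51 in AN15, 10.2 in AN20 and 13.4 in AN9. In AN P it ranged from 5.71 FPKM in AN6 through 6.74 in AN2, 7.27 in AN3 and 8.05 in AN5 to 9.80 in AN7. The order of the group means was AI P (15.5 ± 4.62 FPKM, SD, n = 3), AN F (9.14 ± 3.49, n = 4), AN P (7.51 ± 1.53, n = 5) and AI F (5.79 ± 1.24, n = 4), and each neighbouring pair in that order overlapped. The mean of AI F was 1.25 below that of AI P on the log2(FPKM + 1) scale (SE 0.24), which is 2.39-fold lower on that scale. This difference is what the genes were chosen from and carries no test.

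**Figure D1:**
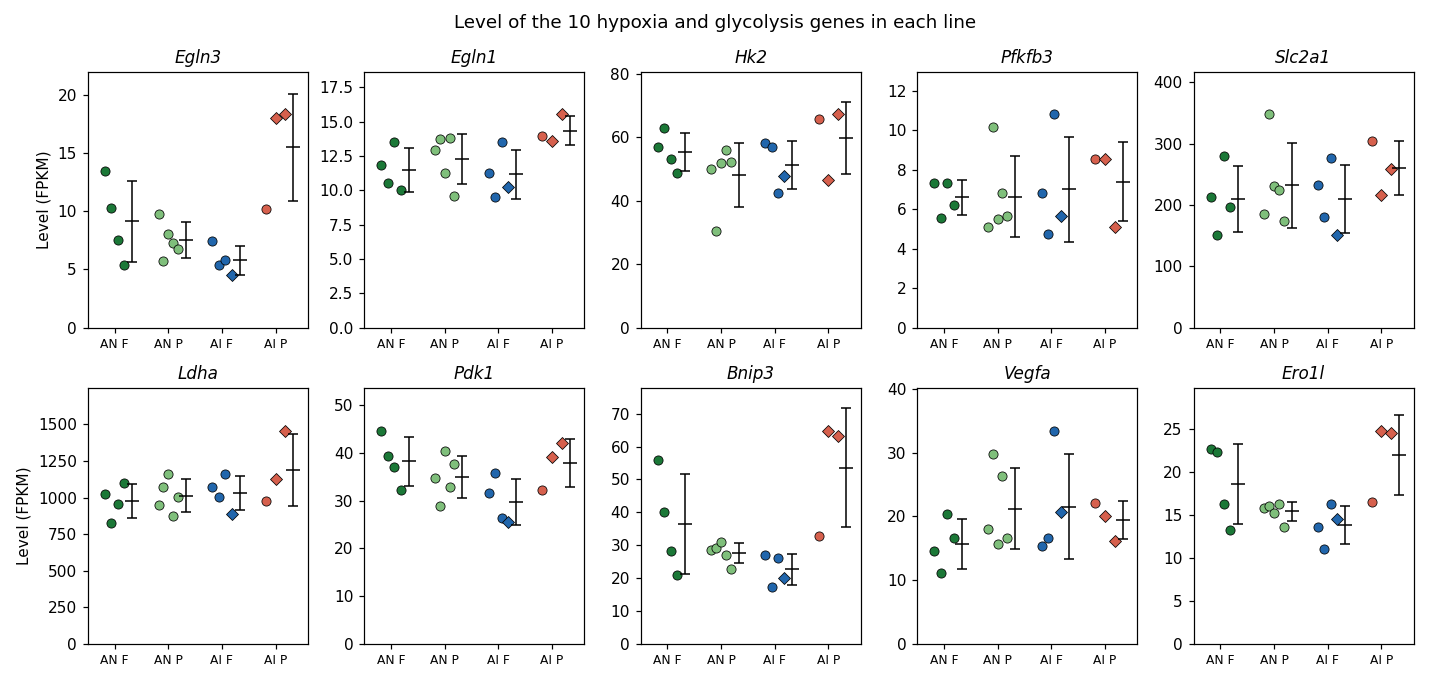
Level in FPKM (vertical axis, from 0, a scale for each gene) of the 10 genes in each line, by group (horizontal axis). Each point is 1 line, diamonds are the previously derived lines GS4, GS9 and GS32, and the bar gives the mean and SD of the group. In Egln3, Bnip3 and Ero1l the GS4 and GS9 points stand above the rest, with AN9 and AN20 next.

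Bnip3 and Ero1l came closest to Egln3 in the AI lines. Bnip3, a mitochondrial protein that marks mitochondria for removal, stood in AI P at 32.8 FPKM in AI9, 64.8 in GS9 and 63.1 in GS4, and in AI F at 17.4 in AI3, 20.005 in GS32, 26.2 in AI10 and 26.9 in AI7. The AI groups did not overlap, and again AI9 lay nearer to AI F than to GS4 and GS9. The mean of Bnip3 was 1.17 lower in AI F on the log2 scale (SE 0.27, 2.24-fold), with an unadjusted p of 0.0032 and an adjusted p of 0.521 from limma over all genes. Ero1l, the oxidase that supplies disulfide bonds in the endoplasmic reticulum, stood in AI P at 16.5 FPKM in AI9, 24.8 in GS9 and 24.5 in GS4, and in AI F at 10.98 in AI3, 13.5 in AI7, 14.5 in GS32 and 16.2 in AI10. Its groups were separate only by the gap between AI10 and AI9. The mean of Ero1l was 0.62 lower in AI F on the log2 scale (SE 0.19, 1.54-fold), with an unadjusted p of 0.0116 and an adjusted p of 0.521 from limma.

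Neither difference passed the test over all genes, and no gene did. Of the 13185 genes tested between AI F and AI P, limma called 0 at an adjusted p of 0.05, which is 0%, while 458 were higher and 567 lower in AI F at an unadjusted p of 0.05. The lower ones made up 4.3% of the genes tested, and among the 9 genes other than Egln3 they were Bnip3, Ero1l and Egln1. Every AI F line was below every AI P line for the same 3 of these 9 genes, against 3.19% of all genes, and for Egln3, which was chosen for it. With 4 lines against 3 the exact 2-sided permutation test cannot go below 0.0571, and Bnip3, Ero1l and Egln1 were each at that p.

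The other hydroxylase, Egln1, which does most of the oxygen-dependent marking of HIF, differed less. It stood at 13.6, 14.0 and 15.5 FPKM in GS9, AI9 and GS4, and at 9.52, 10.3, 11.3 and 13.5 FPKM in AI3, GS32, AI7 and AI10. AI10 and GS9 were all but level. The mean was 0.35 lower in AI F on the log2 scale (SE 0.14, adjusted p = 0.521, limma). Pdk1, the kinase that switches off pyruvate dehydrogenase, stood at 32.3 FPKM in AI9, 39.1 in GS9 and 42.2 in GS4 and at 25.5 to 35.8 FPKM in the AI F lines, with AI3 the highest of these and above AI9. Its mean was 0.34 lower in AI F on the log2 scale (SE 0.15, adjusted p = 0.521, limma).

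For the genes of glucose uptake and glycolysis the AI F and AI P lines overlapped, and no difference passed the test. Slc2a1, a glucose transporter, ranged from 151 to 277 FPKM in AI F and from 216 to 304 in AI P, a difference in means of -0.33 on the log2 scale (SE 0.23). This value was -0.18 without GS32, -0.17 under quantile normalization and -0.53 with derivation as a term (unadjusted p = 0.0327, adjusted p = 0.917, limma). Hk2, the hexokinase bound to mitochondria, ranged from 42.3 to 58.2 FPKM in AI F and from 46.7 to 67.2 in AI P, a difference of -0.21 (SE 0.17) that was -0.12 without GS4 and -0.38 without GS9. Pfkfb3, which makes the activator of phosphofructokinase, ranged from 4.72 to 10.8 FPKM in AI F and from 5.08 to 8.57 in AI P, a difference of -0.10 (SE 0.28) that turned to between 0.01 and 0.05 without AI9, GS9 or AI3. Ldha, the most abundant of the 10 per length, ranged from 888 to 1163 FPKM in AI F and from 976 to 1457 in AI P, a difference of -0.19 (SE 0.19) that turned to 0.07 under quantile normalization. Vegfa, the growth factor of blood vessels, was the only one with a higher mean in AI F (0.09 on the log2 scale, SE 0.26). It ranged from 15.3 to 33.4 FPKM in AI F and from 16.2 to 22.0 in AI P. Without AI10, the line at 33.4, its difference was -0.14, and without GS4 it was -0.03.

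Of the 9 genes other than Egln3, 8 had a lower mean in the AI F lines than in the AI P lines, where 55.9% of all genes did, and their median difference was -0.33 against -0.04 over all genes on the log2 scale. The difference was more negative among the earlier derived lines for Egln3, Bnip3, Ero1l, Egln1, Slc2a1, Pdk1 and Ldha. It was not for Hk2, Pfkfb3 and Vegfa. Between GS32 and the pair GS4 and GS9 the difference of Egln3 was -1.80 on the log2 scale, and between AI3, AI7 and AI10 and the single line AI9 it was -0.64. For Bnip3 these values were -1.63 and -0.49, and for Ero1l -0.72 and -0.28. For Pdk1 they were -0.65 and -0.06, for Slc2a1 -0.64 and -0.42, for Ldha -0.53 and 0.14, and for Egln1 -0.46 and -0.28. In each set 9 of the 10 means, Egln3 included, were lower in the F lines, and 8 of the 10 in both. The share of all genes lower in F was not computed within either set, so these counts have no background to stand beside. Derivation holds only 1 F line in the earlier set and only 1 P line in the later one, so neither set has a spread in both arms. Fibroblast marker levels were lowest in GS4 and GS9, and pluripotency markers were highest there. AI9, also an AI P line, did not share this. Its fibroblast markers summed to 1887 FPKM, within the 1133 to 2183 of the AI F lines. Its pluripotency markers summed to 1962 FPKM, within the 1732 to 2177 of the AI F lines. The part of the pluripotency markers in the differences was not tested. With the averaged level of the 12 fibroblast genes added to the fit, an alternative chosen after seeing the data, the difference was -0.84 for Egln3, -0.75 for Bnip3 (adjusted p = 1, limma) and -0.46 for Ero1l.

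**Figure D2:**
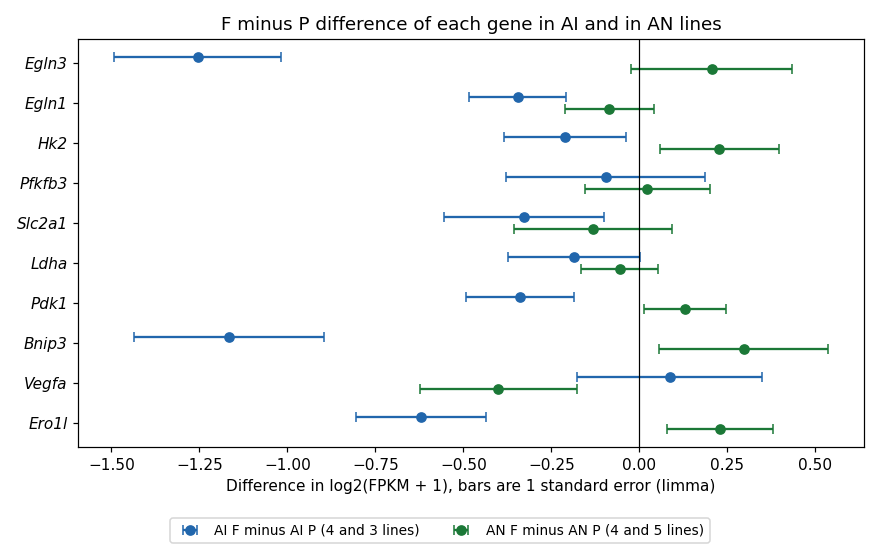
Difference between F and P lines in log2(FPKM + 1) (horizontal axis) for each gene (vertical axis), blue for AI (4 F and 3 P lines) and green for AN (4 F and 5 P lines), with bars of 1 standard error from limma. In AI, Egln3 (-1.25) and Bnip3 (-1.17) lie farthest below 0, while in AN both lie above it (0.21 and 0.30).

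In the AN lines Egln3, Bnip3 and Ero1l had higher means in F, and no difference passed the test. Egln3 was 0.21 higher in AN F than in AN P on the log2 scale (SE 0.23, adjusted p = 0.737, limma), and the 4 AN F lines covered the range of the AN P lines at both ends. Bnip3 stood at 21.1, 28.3, 40.1 and 55.9 FPKM in AN1, AN15, AN20 and AN9, against 22.8 to 31.0 FPKM in the 5 AN P lines. AN9 and AN20 were above every AN P line and AN1 was below every one. Its mean was 0.30 higher in AN F on the log2 scale (SE 0.24, adjusted p = 0.664, limma). Ero1l had the same shape, with AN20 and AN9 at 22.3 and 22.6 FPKM, AN1 at 13.2, AN15 at 16.3 and the AN P lines between 13.6 and 16.3, a difference of 0.23 (SE 0.15). These 3 differences moved with single lines: without AN9 they were 0.01 for Egln3, 0.06 for Bnip3 and 0.13 for Ero1l, and without AN1 0.41, 0.52 and 0.37. Vegfa went the other way, 0.40 lower in AN F on the log2 scale (SE 0.22, adjusted p = 0.636, limma), with 11.1 to 20.4 FPKM in AN F and 15.6 to 29.7 in AN P.

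In the AN lines 4 of the 10 genes had a lower mean in F, against 53.6% of all genes, and none of the 10 separated the groups, against 1.3% of all genes. Limma called 0 of 13185 genes, or 0%, with 398 higher and 394 lower in AN F at an unadjusted p of 0.05. The exact permutation p of Egln3 was 0.46 (n = 4 and 5), where the smallest the design allows is 0.0159, and the lowest among the 10 genes was 0.19, for Vegfa. In AN P the Hk2 level of AN6 was 30.4 FPKM, apart from the 49.9 to 55.9 of the other 4 lines, and without AN6 the AN F to AN P difference of Hk2 was 0.07 in place of 0.23 on the log2 scale.

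The difference between the AI effect and the AN effect was fitted itself, as an interaction over the 16 lines. It was -1.46 for Egln3 on the log2 scale (SE 0.35), given without a test. Bnip3 was at -1.46 (SE 0.38, unadjusted p = 0.00154), Ero1l at -0.85 (SE 0.24, unadjusted p = 0.00329) and Pdk1 at -0.47 (SE 0.19, unadjusted p = 0.0292), each with an adjusted p of 0.290 from limma. These were 3 of the 9 other genes, against 8.34% of all genes below 0 at an unadjusted p of 0.05. No gene of 13185 passed the adjusted threshold (0%), with 1095 above 0 and 1099 below 0 at an unadjusted p of 0.05. One line decided this. Without AI9, the AI P line with low Egln3, 651 genes passed, 201 of them below 0 (1.52%), and among these were Bnip3 (-1.78, adjusted p = 0.0309) and Ero1l (-1.03, adjusted p = 0.0354, limma). Leaving out AI9 leaves only GS4 and GS9 in AI P, both derived earlier, lowest in fibroblast markers and highest in pluripotency markers. Without any 1 of the other 15 lines, neither passed. With the averaged fibroblast markers in the fit, added after seeing the data, the interaction was -0.87 for Bnip3 and -0.60 for Ero1l (adjusted p = 0.999 for each, limma). Without GS4, GS9 and GS32, which leaves AI9 as the lone AI P line, it was -0.78 and -0.51.

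No difference between AN and AI lines was detected in these genes. The mean of the AN groups was compared with that of the AI groups. The 10 differences ran from -0.20 for Egln3 (SE 0.17) to 0.12 for Pdk1 (SE 0.10) on the log2 scale, with an adjusted p of 0.999 for each (limma). Of these, 9 were below 0 and 1 above it, where 51.6% of all genes were above 0. No gene of 13185 was called (0%), with 285 higher and 179 lower in AN at an unadjusted p of 0.05. Their standard errors were 0.09 to 0.19.

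With the groups pooled after removal of their means, Bnip3 and Ero1l rose with Egln3 from line to line. The rise was not seen in every group. From the line lowest to the line highest in Egln3, Ero1l went from 16.1 to 15.7 FPKM in AN P (AN6, AN7). In AI F (GS32, AI7) it went from 14.5 to 13.5. Bnip3 went from 29.1 to 28.6 FPKM in AN P. Between such ends both rose in AN F and AI P, and Bnip3 also in AI F. Each gene was fitted on log2(FPKM + 1) of Egln3 with the 4 groups as terms, so that the difference between AI F and AI P, from which the genes were chosen, did not enter. Bnip3 rose by 0.97 log2 units per log2 unit of Egln3 (SE 0.15, adjusted p = 0.0213, limma). Ero1l rose by 0.50 (SE 0.14, adjusted p = 0.0464, limma), a call that most alternatives below did not keep. Pdk1 had a slope of 0.38 (SE 0.12) and missed the threshold at an adjusted p of 0.0607. The 2 positive calls among 9 genes stand beside 3.04% of 13184 genes called positive and 4.1% called negative.

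The remaining slopes were small against their errors. They were 0.22 for Hk2 (SE 0.19), 0.09 for Ldha (SE 0.16), 0.09 for Egln1 (SE 0.14), -0.19 for Pfkfb3 (SE 0.26) and -0.21 for Slc2a1 (SE 0.26). The Ldha slope was -0.14 (SE 0.16) in the AN lines alone and 0.49 (SE 0.25) in the AI lines alone, neither called. Vegfa had the lowest slope, -0.47 (SE 0.26, adjusted p = 0.254, limma). In AN9 and AN20, the AN lines with the most Egln3, Vegfa was at 14.6 and 11.1 FPKM, the lowest values of all 16 lines.

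The size of the Bnip3 slope changed little between settings, while its call was lost in several. The slope was 0.91 in the AN lines alone (adjusted p = 0.215) and 1.07 in the AI lines alone (adjusted p = 0.126), and between 0.88 and 1.07 without any 1 line. Its adjusted p rose to 0.0879 without AN1, to 0.105 without AI9 and to 0.0615 without AI7, when no gene passed at all. The call for Ero1l was lost without any 1 of 13 of the 16 lines, with slopes of 0.40 to 0.56, and under 4 of the planned settings tried on all 16 lines. Pdk1 passed without AI3 (adjusted p = 0.0401, limma). Fibroblast markers again went with Egln3: their mean correlated with Egln3 at r = -0.75 (Spearman's rho = -0.73) after removal of group means, and with Pdk1 at r = -0.78. With this mean as a term the Bnip3 slope was 0.81 (SE 0.21, adjusted p = 0.303, limma) and that of Ero1l 0.51 (SE 0.20, adjusted p = 0.313). That of Pdk1 fell from 0.38 to 0.27 (SE 0.16, adjusted p = 0.458, limma), and no gene was called.

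**Figure D3:**
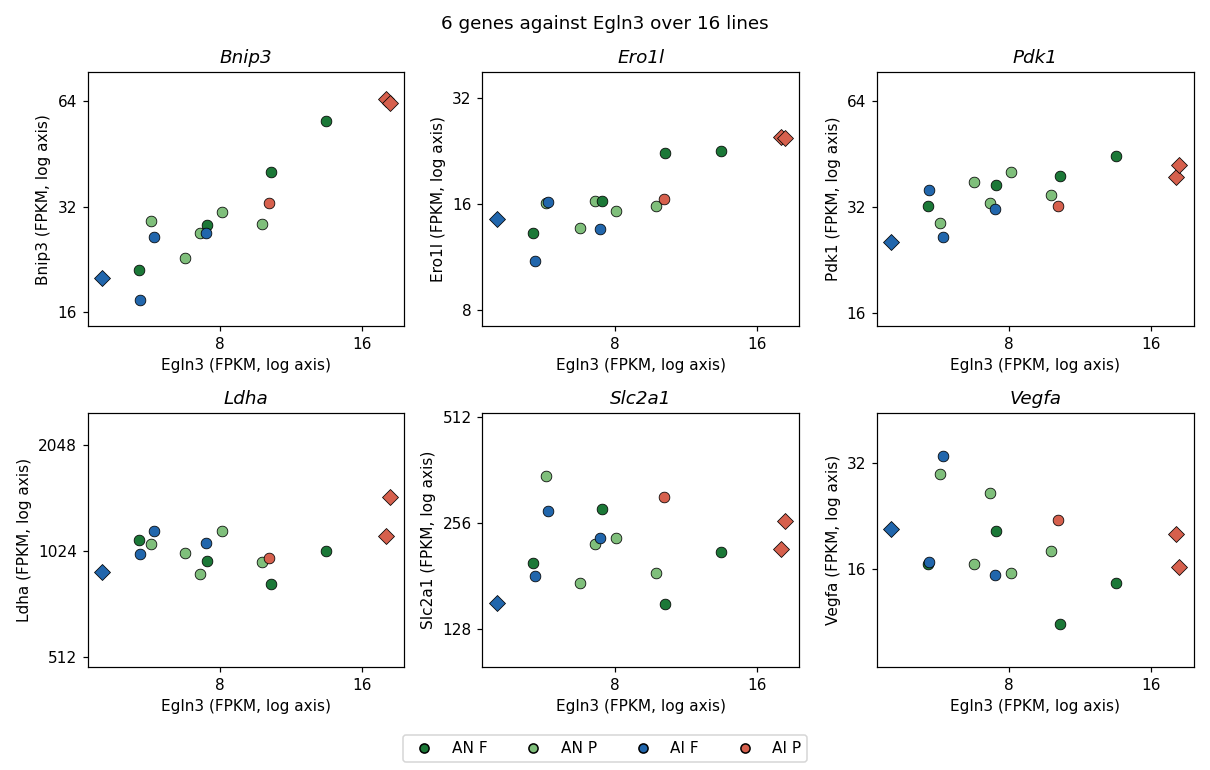
Level of 6 genes (vertical axes, FPKM, log2 axes of equal span) against Egln3 (horizontal axes, FPKM, log2) in the 16 lines. Points are coloured by group and diamonds are GS4, GS9 and GS32. Over the 16 lines Bnip3 climbs with Egln3, and Ero1l and Pdk1 less steeply. Within AN P Bnip3 shows no steady climb, at 29.1 FPKM in AN6, lowest there in Egln3, and 28.6 in AN7, the highest. Vegfa has its lowest points, AN20 and AN9, among lines high in Egln3.

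Line by line, the same lines led for Egln3, Bnip3 and Ero1l, while the order below them differed. The 5 lines with the most Egln3 were GS4, GS9, AN9, AN20 and AI9, in falling order, and the same 5 led for Bnip3 and for Ero1l, both in the order GS9, GS4, AN9, AN20, AI9. Group means were not removed here. These 5 hold every AI P line, the group high in Egln3 when the genes were chosen. Next came AN7 for Egln3, AN5 for Bnip3 and AN3 for Ero1l. The lowest line was GS32 for Egln3 and AI3 for Bnip3 and Ero1l. For Slc2a1 the leading line was AN6, for Vegfa and Pfkfb3 AI10 followed by AN6, and for Pdk1 AN9. Over all 16 lines Egln3 spanned 4.07-fold from lowest to highest and Bnip3 3.72-fold, against 3.01-fold for Vegfa, 2.3-fold for Slc2a1 and 1.63-fold for Egln1.

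Correlations between the genes after removal of group means (n = 16 lines) are given as description, because all values of a line share a library and its makeup of cells. For Egln3, Pearson's r with Bnip3 was 0.88 (Spearman's rho 0.81), with Ero1l 0.72 (0.61) and with Pdk1 0.71 (0.66), and Bnip3 and Ero1l were correlated at 0.91. Pdk1 was correlated less with Bnip3 (0.46) and with Ero1l (0.21) than with Egln3. Without AN1 and AN9, the lines farthest from the median in Egln3 once group means were removed, the values with Egln3 were 0.78, 0.56 and 0.60. Other pairs with high values were Pfkfb3 and Vegfa (0.81), Pfkfb3 and Slc2a1 (0.72), Egln1 and Slc2a1 (0.71), Slc2a1 and Vegfa (0.67) and Egln1 and Vegfa (0.66). Between Egln3, Bnip3 and Ero1l on one side and Egln1, Slc2a1, Pfkfb3 and Vegfa on the other, the values ran from -0.45 for Egln3 and Vegfa to 0.41 for Ero1l and Egln1. Egln3 and Egln1 had an r of 0.18, and Pdk1 and Vegfa one of -0.71. Hk2 was correlated at -0.68 with Pfkfb3 and -0.64 with Vegfa, and Ldha with no gene beyond 0.38.

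**Figure D4:**
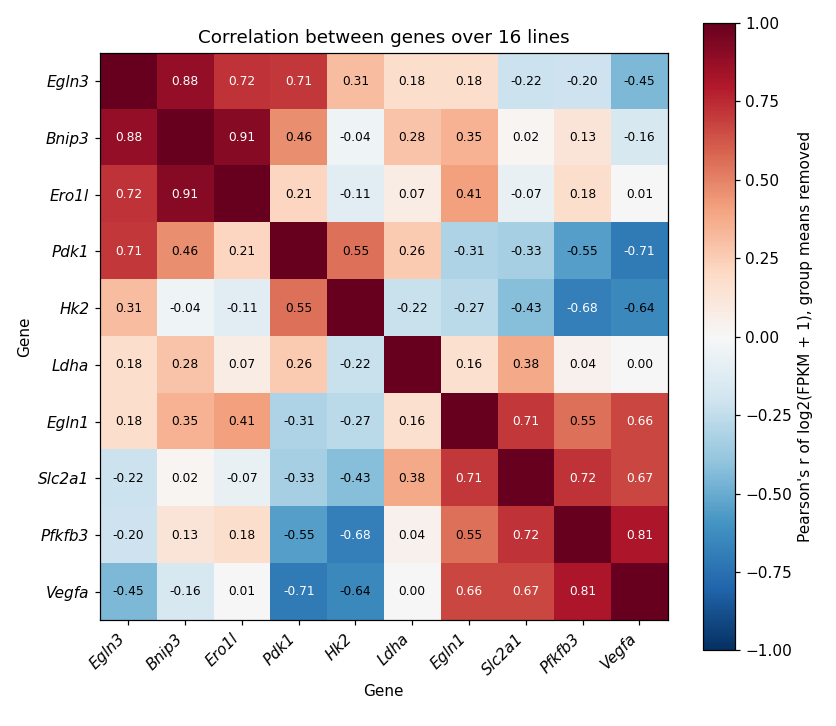
Pearson's r between each pair of genes (axes) over the 16 lines, computed on log2(FPKM + 1) after removal of group means, red for positive and blue for negative. Values are high among Egln3, Bnip3 and Ero1l (0.72 to 0.91) and among Egln1, Slc2a1, Pfkfb3 and Vegfa (0.55 to 0.81), and run from -0.45 to 0.41 between them.

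The rest of the pathway was read from 3 lists. Of 13 genes of the HIF system (the HIF subunits, Vhl and its partners, and other regulators), all 13 were tested, 7 had a lower mean in the AI F lines than in the AI P lines, and the median difference was -0.08 on the log2 scale. Hif1a itself ranged only from 37.2 to 47.2 FPKM over the AI lines (difference 0.06, SE 0.11). Of 25 other HIF targets, all tested, 20 were lower in AI F, with a median of -0.25, and of 24 tested genes of 27 in the list of other glycolysis genes 19 were lower, with a median of -0.18. Over all genes 55.9% were lower and the median was -0.04. None passed the adjusted threshold. At an unadjusted p of 0.05, 5 of the other HIF targets were lower in AI F, and 1 of the other glycolysis genes, Aldoc, while 1 of the HIF system was higher, Arnt2, a partner subunit of HIF (0.61, SE 0.17). Over all genes 4.3% were lower at that p. In the AN lines 8 of the 25 other HIF targets and 8 of the 24 glycolysis genes had a higher mean in F, and the medians were -0.08 and -0.07. The largest differences there were those of Cul2 (0.45), the histone demethylase Kdm3a (0.36) and the enolase Eno3 (-0.34), each with an adjusted p of 0.636 (limma). In the interaction they were those of Ankrd37 (-1.52), Aldoc (-0.75) and the adenylate kinase Ak4 (-0.75), each with an adjusted p of 0.290, and between AN and AI those of the peptide hormone Adm (-0.37), Ndrg1 (-0.31) and the collagen prolyl hydroxylase subunit P4ha2 (-0.30), each with an adjusted p of 0.999 (limma).

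Ankrd37, a HIF target whose protein holds ankyrin repeats, had the largest difference of the lists. It stood at 7.08 FPKM in AI9, 12.2 in GS9 and 23.1 in GS4 and at 2.54, 2.63, 3.30 and 6.45 FPKM in AI3, AI10, GS32 and AI7, without overlap. Its mean was 1.60 lower in AI F on the log2 scale (SE 0.41, adjusted p = 0.521, limma). Aldoc, an aldolase, was 0.82 lower (SE 0.23) and Ddit4, an inhibitor of mTORC1 signalling, 0.65 lower (SE 0.27), each with the same adjusted p. The other 3 of the 5 HIF targets were Ndrg1 (-0.65), Ak4 (-0.60) and Mxi1 (-0.39). These 3, Arnt2, Hif1a and the abundant genes listed with their slopes further on are named after their values were seen.

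On the slope within groups, 3 of the 62 genes tested in these lists were called positive and 1 negative, beside 3.04% and 4.1% of all genes, so the lists were near the background. Ankrd37 rose by 1.05 log2 units per log2 unit of Egln3 (SE 0.24, adjusted p = 0.0287, limma), Cul2, the scaffold of the Vhl ligase, by 0.62 (SE 0.15, adjusted p = 0.0327), and Pdk3, a sister kinase of Pdk1, by 0.43 (SE 0.10, adjusted p = 0.0271). Eno2, the neuronal enolase, had a slope of -0.60 (SE 0.16, adjusted p = 0.0418, limma). Cul2 was at 33.4 and 35.7 FPKM in AN9 and AN20, at 25.2 in GS9 and between 14.8 and 20.1 in the other 13 lines, so AN9, AN20 and GS9 stood above all others. Pgk1, Slc2a3, Aldoa, Gapdh and Pkm2, among the most abundant glycolysis genes and targets, had slopes of 0.20, -0.04, 0.07, 0.07 and 0.07, none called.

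**Figure D5:**
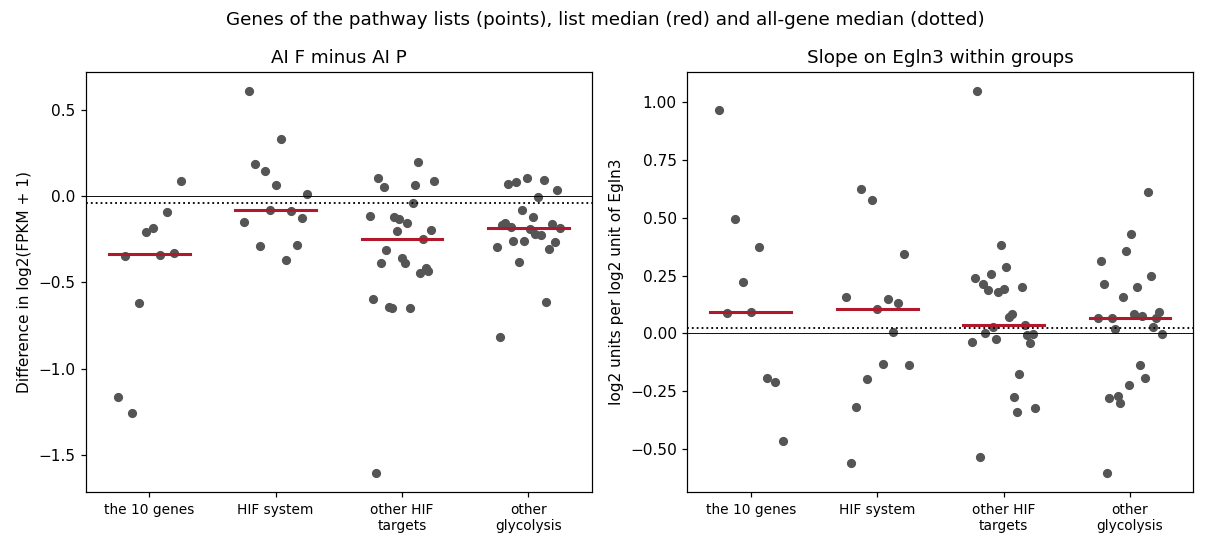
Genes of the 10 and of the 3 pathway lists (points), as the AI F minus AI P difference in log2(FPKM + 1) (left) and as the slope on Egln3 within groups (right, log2 units per log2 unit). Red bars are list medians and the dotted line is the median of all genes tested. On the left the 25 other HIF targets lie mostly below 0, with Ankrd37 lowest at -1.60, and on the right all list medians lie between 0 and 0.11.

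The genes most like Egln3 over the 16 lines, by Pearson's r after removal of group means, were Ift80 (0.93), Caprin2 (0.92), Xrcc6 (0.91), Nup35 (0.90) and Rfc2 (0.90), none of them on the pathway lists. Ift80 is a protein of ciliary transport, Xrcc6 a DNA end-binding repair protein, Nup35 a nuclear pore protein and Rfc2 a subunit of the clamp loader of DNA replication. Bnip3 ranked 16 of 13184 genes by this measure, Ero1l 453, Pdk1 568 and Vegfa 10674.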

How the data were processed

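RNA-seq of 16 lines was analysed from 1 table of FPKM values per gene. Per the labels and the study's methods, the authors sequenced single-end reads, mapped them to mm9 with TopHat2 2.1.0 and computed the deposited FPKM values with Cufflinks 2.2.1. HTSeq is also named in the submitters' processing notes, without a role. FPKM is scaled to library size and transcript length, and the table gives no counts. Depth is therefore estimated only relative to AN1, from the step between values under 1 FPKM and within a limited span around AN1.

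Values were taken as log2(FPKM + 1), genes with a mean of at least 0.5 FPKM were kept (13185 of 22552), and each comparison was fitted in limma 3.58.1 (R 4.3.3), its variance prior following a trend on the mean level, with Benjamini-Hochberg adjustment over all genes tested and a threshold of 0.05. A fold change on this scale understates the change of low genes. Exact permutation tests were 2-sided, over lines (126 splits in AN, 35 in AI). The slope on Egln3 was fitted with the 4 groups as terms, without Egln3 itself (13184 genes). The limma fit was checked on simulated data.

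The members and lists were chosen with earlier results of these data known. From the pathway lists the text names each gene past the adjusted threshold, at most 10 a comparison, or else the 3 with the largest difference, and the 5 genes most correlated with Egln3. Others named are marked. The alternatives were another pseudocount, filter and normalization, no trend, passage or derivation as a term, 1 fit of all lines, AN or AI lines alone and each line left out. After seeing the data, the fibroblast markers as a term and leaving out GS4, GS9 and GS32 were added. Markers of primitive endoderm, a further list of 8 genes, summed to 19.7 to 79.8 FPKM a line, lowest in GS9. Promoter windows came from RefSeq, and gene positions in mm9 from GENCODE.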

Additional observations from a re-analysis of the deposited data

Results flagged for a closer look

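The levels of the 10 genes and the sums of the 3 marker lists were tested in the 3 groups of 4 or 5 lines for a line that stands apart, 39 tests in all, and 1 line did. Chance gives about 1 in 20, or 1.95 of 39. Hk2 was at 30.4 FPKM in AN6 of the AN P group, while the other 4 AN P lines lay between 49.9 and 55.9 FPKM, a gap of 0.766 of the range of the group.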

How the results depend on the processing

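No paired analysis was possible because the replicate numbers of the lines only name them. Without 1 line, the number of genes called by limma, 0 over all lines, ranged from 0 to 1 (AN F against AN P), 0 to 5 (AI F against AI P), 0 to 651 (the interaction) and 0 to 1 (AN against AI). For the slope on Egln3, 941 over all lines, it ranged from 0 (without AN1, AI9 or AI7) to 1103, with 472 without AN20, 518 without AN15, 565 without AN9 and 615 without AI3. Without GS4, GS9 and GS32, which leaves AI9 as the lone AI P line, assumed to vary like the others, the counts were 21 (AI F against AI P), 7 (the interaction), 9 (AN against AI) and 0 (slope). With the fibroblast term they were 1 (AN against AI) and 0 (slope). The slope called 544 genes with no filter, 0 in the AN lines alone and 9 in the AI lines alone. The number of the 10 genes lower in AN F was 4 over all lines and 2 (without AN20) to 5 without 1 line.

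Directions turned only for values that passed no test. Without 1 line, the AN F to AN P difference ranged from -0.05 to 0.17 for Pfkfb3, from -0.28 to 0.023 for Slc2a1 and from -0.12 to 0.022 for Ldha. The AI difference ranged from -0.31 to 0.047 for Pfkfb3 and from -0.14 to 0.22 for Vegfa. The interaction ranged from -0.34 to 0.024 for Pfkfb3 and from -0.26 to 0.028 for Ldha, AN against AI from -0.19 to 0.018 for Pfkfb3 and from -0.13 to 0.030 for Ero1l, and the slope of Ldha from -0.041 to 0.26. Under quantile normalization Ldha was at 0.066 (AI), 0.15 (interaction) and -0.17 (slope). With the fibroblast term Vegfa was at -0.15 (AI) and Ldha at 0.026 (interaction) and -0.11 (slope). Without GS4, GS9 and GS32 the AI difference was 0.14 for Ldha and -0.10 for Vegfa, the Ldha interaction 0.20 and slope -0.12, and AN against AI 0.013 for Egln3, 0.15 for Bnip3 and 0.15 for Ero1l. In the AN lines alone the Ldha slope was -0.14, and in the AI lines alone the slopes were -0.062 for Hk2 and 0.034 for Slc2a1. The causes were not tested. The table gives no counts, so the counting error of a value is unknown.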
